A study of Homo sapiens with 2 samples.

Results

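In SW620 cells, 286 of 2697 deposited WSTF summits (10.6%, exact 95% interval 9.47 to 11.8) had another summit within 10 kb on the same chromosome. A summit is the single base at which the peak caller placed the maximum of a peak. These 286 summits were chosen by their measured positions, and chaining neighbours no more than 10 kb apart grouped them into 135 clusters. How many summits are clustered, and how close they lie, is therefore a description of the choice and was not tested. SW620 is an established human colorectal adenocarcinoma line that was derived from a lymph node. WSTF is the product of BAZ1B, and the chromatin was immunoprecipitated with an antibody against it. The series has 2 samples, titled SW620 and SW620-IP, with no replicate of either. Knockdown is named in the series title but overexpression in its design text, and the WSTF level of these cells is therefore not known here. A single list of summits was analysed. Which sample served as input is not stated in the labels, and the sequencing depth is unknown. Each summit carries the authors' score, read here as a q-value on the −log10 scale.

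WSTF has a bromodomain and a PHD finger and works with the ATPase SMARCA5 in ISWI complexes that slide nucleosomes. It is known for roles in chromatin assembly behind replication forks, in the DNA damage response and in transcription. At an active promoter a stretch poor in nucleosomes lies over the start site, with positioned nucleosomes on either side, and many human promoters drive 2 genes in opposite directions. Neighbouring summits can thus lie on both sides of one start, at starts of neighbouring genes, or at a start and a site farther inside the gene. To tell these apart, each summit was compared with the start sites of RefSeq genes, and a summit within 1 kb of a start is called a promoter summit below.

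Promoters of 9 clusters that show the main kinds are printed here, each from 250 bases before a start to 50 after it (RefSeq, GRCh38.p14). The first 4 belong to the tightest summit pairs, BAZ1B included, the next 2 to the 2 highest-scoring pairs at a single start, and the last 3 to pairs over neighbouring genes. Capitals mark matches on either strand to GGGCGG (SP1/KLF), CCGGAAG (ETS), GCGCATGC (NRF1), CCAAT (bound by NF-Y), TATAAA (the TATA box), GCCATNTT (YY1), TGACGTCA (ATF/CREB), CACGTG (E-box) or TGANTCA (AP-1), and overlapping matches form 1 run of capitals.
PIGW, chr17:36534737-36535036, plus strand: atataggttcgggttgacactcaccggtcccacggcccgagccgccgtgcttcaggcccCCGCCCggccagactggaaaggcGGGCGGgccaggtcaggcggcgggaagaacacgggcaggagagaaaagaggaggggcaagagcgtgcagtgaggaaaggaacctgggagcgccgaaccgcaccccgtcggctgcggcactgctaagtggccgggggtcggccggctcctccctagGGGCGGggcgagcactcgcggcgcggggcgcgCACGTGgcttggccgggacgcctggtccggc
MCRIP1, chr17:81833242-81833541, minus strand: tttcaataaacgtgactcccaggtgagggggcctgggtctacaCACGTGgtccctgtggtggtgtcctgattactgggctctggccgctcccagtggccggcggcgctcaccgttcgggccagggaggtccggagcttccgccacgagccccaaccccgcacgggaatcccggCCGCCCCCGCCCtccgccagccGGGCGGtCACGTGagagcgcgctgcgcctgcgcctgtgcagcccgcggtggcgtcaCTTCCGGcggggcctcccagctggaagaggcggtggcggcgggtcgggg
BAZ1B, chr7:73522244-73522543, minus strand: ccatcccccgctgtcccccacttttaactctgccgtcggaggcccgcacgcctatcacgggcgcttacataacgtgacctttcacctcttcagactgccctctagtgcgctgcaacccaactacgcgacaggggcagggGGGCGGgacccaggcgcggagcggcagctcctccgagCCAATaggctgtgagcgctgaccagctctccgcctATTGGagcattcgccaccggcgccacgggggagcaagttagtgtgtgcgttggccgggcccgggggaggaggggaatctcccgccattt
BRAF, chr7:140924219-140924518, minus strand: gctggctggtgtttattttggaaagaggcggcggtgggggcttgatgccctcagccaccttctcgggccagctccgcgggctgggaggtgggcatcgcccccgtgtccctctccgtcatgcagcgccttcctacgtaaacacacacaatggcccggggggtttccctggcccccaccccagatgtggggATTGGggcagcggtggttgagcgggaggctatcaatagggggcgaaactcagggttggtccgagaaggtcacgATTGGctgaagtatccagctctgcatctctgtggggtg
TUBA1C, chr12:49264832-49265131, plus strand: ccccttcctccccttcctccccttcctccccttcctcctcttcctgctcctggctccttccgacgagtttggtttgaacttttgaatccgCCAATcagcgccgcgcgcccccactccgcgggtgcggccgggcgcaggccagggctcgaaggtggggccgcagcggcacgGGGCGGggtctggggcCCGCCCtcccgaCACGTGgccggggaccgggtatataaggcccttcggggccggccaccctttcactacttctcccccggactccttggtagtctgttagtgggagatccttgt
CTCF, chr16:67562276-67562575, plus strand: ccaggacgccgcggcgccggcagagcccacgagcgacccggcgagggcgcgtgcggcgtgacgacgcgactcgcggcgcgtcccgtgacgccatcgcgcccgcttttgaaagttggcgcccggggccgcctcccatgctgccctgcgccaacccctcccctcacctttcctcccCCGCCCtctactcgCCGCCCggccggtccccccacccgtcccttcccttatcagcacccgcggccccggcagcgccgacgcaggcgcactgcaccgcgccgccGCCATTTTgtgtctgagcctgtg
THAP11, chr16:67842070-67842369, plus strand: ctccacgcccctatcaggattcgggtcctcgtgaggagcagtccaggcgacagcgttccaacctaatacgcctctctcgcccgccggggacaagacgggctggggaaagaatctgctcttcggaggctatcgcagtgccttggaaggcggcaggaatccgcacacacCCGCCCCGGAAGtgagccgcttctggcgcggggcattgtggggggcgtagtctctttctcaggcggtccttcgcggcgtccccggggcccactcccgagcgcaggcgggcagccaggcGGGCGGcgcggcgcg
KAT5, chr11:65712002-65712301, plus strand: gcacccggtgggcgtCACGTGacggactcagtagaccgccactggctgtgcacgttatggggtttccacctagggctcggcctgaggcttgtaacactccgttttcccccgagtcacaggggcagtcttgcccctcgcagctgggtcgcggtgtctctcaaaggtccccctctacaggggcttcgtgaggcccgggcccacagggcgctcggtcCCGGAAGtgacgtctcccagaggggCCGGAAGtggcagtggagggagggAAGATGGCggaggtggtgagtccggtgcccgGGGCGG
NME3, chr16:1771494-1771793, minus strand: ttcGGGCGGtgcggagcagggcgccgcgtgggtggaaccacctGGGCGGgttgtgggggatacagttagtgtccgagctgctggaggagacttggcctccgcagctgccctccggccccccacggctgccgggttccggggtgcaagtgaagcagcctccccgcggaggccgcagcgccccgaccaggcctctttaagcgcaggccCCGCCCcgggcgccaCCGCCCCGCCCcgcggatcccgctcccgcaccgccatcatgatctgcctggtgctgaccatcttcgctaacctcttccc

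Letters under a summit are visible in 5 of these sequences. The second BAZ1B summit is base 279 of the printed run, 28 bp inside the gene, and the first lies 463 bp inside it, past the printed bases. The MCRIP1 run holds its upstream summit at base 112. The THAP11, KAT5 and NME3 summits are bases 57, 106 and 121, all before the start. The PIGW, BRAF, TUBA1C and CTCF pairs fall outside the 300 bases, on one or both sides of them. PIGW has 3 GGGCGG matches and 1 E-box, BAZ1B has 1 GGGCGG and 2 CCAAT matches, and BRAF has 2 CCAAT matches and no GGGCGG. KAT5 has 2 ETS matches, and in THAP11 an ETS match overlaps a GGGCGG match on the other strand. NME3 has 5 GGGCGG matches. Such matches are common, as the shares over all promoters given farther down show.

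Most clusters were pairs. Of the 135, 122 held 2 summits, 11 held 3, 1 held 4 and 1 held 5. The 151 gaps between neighbours had a median of 1797 bp (quartiles 810 and 6391) and ran from 369 to 9952 bp. Chromatin had been sheared to between 200 and 500 bp, and the part of fragment length in the shortest gap was not tested. Gaps fell into a dense short range and a sparser, uneven long one. In the former, 47 were up to 1 kb and 31 were over 1 and up to 2 kb. Each further 1 kb bin up to 10 kb held between 4 and 15. Beyond the limit the bins from 10 to 20 kb held 8 to 15 gaps each. The plot of neighbour gaps shows that the 10 kb limit cuts through the sparser part. Just inside it were ZC3H10 and ESYT1 (9952 bp), IRS1 and RHBDD1 (9742 bp) and TUT1 and MTA2 (9680 bp). Just outside were FBXL8 and NOL3 (10085 bp), ATP5F1E and PRELID3B (10173 bp) and the pair that ends at RELA (10292 bp).

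**Figure D1:**
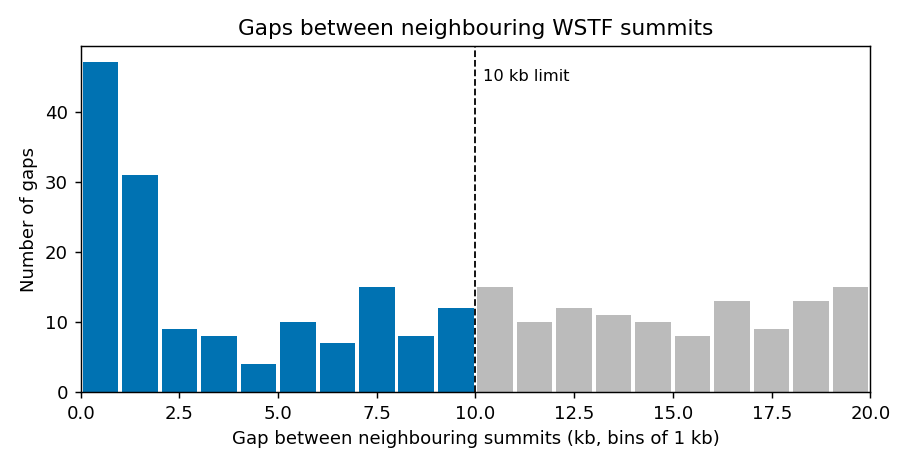
Number of gaps between neighbouring summits (vertical axis) by gap length in bins of 1 kb up to 20 kb (horizontal axis, kb). Blue bars are gaps within clusters and grey bars lie beyond the 10 kb limit; the first bars hold 47 and 31 gaps and no later bar holds more than 15.

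The clusters fell into 5 classes by their place at promoters. Start sites on chromosome 8 were not used here, so its 4 clusters were counted but not classed, which left 131 clusters with 277 summits. In 37 of 131 (28.2%, exact interval 20.7 to 36.8) all summits lay at starts of the same gene. In 29 (22.1%, 15.4 to 30.2) each summit lay at a start but no gene was common to them. Another 29 (22.1%, 15.4 to 30.2) joined a promoter summit to one inside a gene, and 10 (7.63%, 3.72 to 13.6) joined it to intergenic sequence. The other 26 (19.8%, 13.4 to 27.7) had no summit within 1 kb of a start used here. In 11 of these 26, a summit lay within 1 kb of an end of a gene whose start was not used here, so the class is an upper count. Intervals throughout cover counting error only and treat summits as independent, which neighbours are not.

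The classes separated by gap. Among the 36 classed pairs no more than 1 kb apart, 25 lay at one promoter and none spanned several. Among the 44 pairs over 5 kb apart, 21 spanned several promoters and 3 lay at starts of one gene. Pairs over 1 and up to 2 kb apart were mixed, with 8 at one promoter and 8 joining a promoter to a gene body. The 1 kb promoter window sets part of this, since 2 summits at one start cannot be more than 2 kb apart. The one-promoter share was 52.2% at a joining distance of 2 kb, 42.5% at 5 kb and 17.5% at 20 kb.

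**Figure D2:**
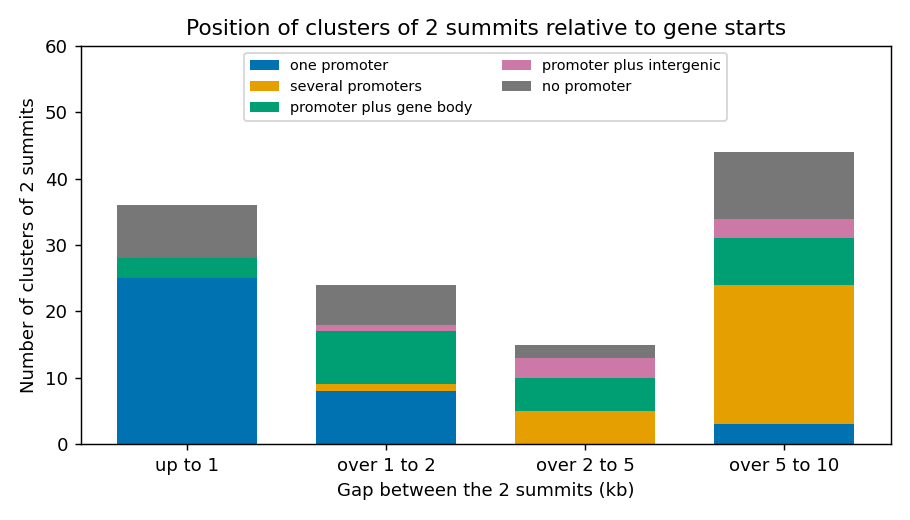
Number of clusters of 2 summits (vertical axis) by the gap between the summits (horizontal axis, kb), coloured by class; chromosome 8 is left out. One-promoter pairs make up 25 of the 36 shortest gaps and several-promoter pairs 21 of the 44 longest.

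Clustered summits were promoter summits in 180 of 277 cases (65.0%, 59.1 to 70.6). Over all summits off chromosome 8 the share was 74.6%, and over those with no neighbour within 10 kb it was 75.8% (74.0 to 77.5). The clustered share was thus lower and its interval lay below that of the other summits, without a test of the difference. The choice of neighbouring summits enters this comparison and that of the offsets below. Summits at least 369 bp apart cannot all lie on 1 start. The clustered and other shares were compared at the 1 kb window only. At 2 kb the clustered share was 75.5%, and that of the other summits was not counted. Summits away from starts lay at a median of 4804 bp from the nearest start if clustered and 18897 bp otherwise. The 10 kb rule sets part of this difference, since any summit with a promoter summit within 10 kb counts as clustered. Both ends of genes with no start used were then counted as well. The shares became 72.6% (66.9 to 77.7) for clustered and 85.4% (83.9 to 86.8) for other summits. The order thus held at 1 kb, though an outer end missing for a gene with another start was not added. Promoter summits in clusters lay at a median of 149 bp from the nearest start (quartiles 66 and 330), and other promoter summits at 125 bp (52 and 232). Starts in opposite directions lay within 1 kb of 26.7% (20.4 to 33.8) of the clustered promoter summits and 26.0% (24.0 to 28.1) of the others. Away from starts, 63.9% (53.5 to 73.4) of the clustered and 63.3% (59.2 to 67.3) of the other summits were inside a gene.

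One-promoter clusters came in 2 forms. In 33 of the 37 a single start lay within 1 kb of every summit, and in 4 the summits lay at different starts of one gene. The 33 were all pairs, with a median gap of 680 bp (quartiles 538 and 962). Offsets were read from a shared protein-coding start where there was one, otherwise from a lncRNA start, and from the one nearest to the middle of the pair. From that start, the summits lay on either side in 20 of the 33, both upstream in 8 and both downstream in 5. Where several starts are shared, taking the one nearest to the middle favours the first layout. The 1 kb window also enters these counts, which were not tested. The layout depends on the start, and 19 pairs shared only 1. In 26 of 33 every shared start gave the same layout (19 flanking, 3 upstream, 4 downstream). Upstream means before the start read, and such a summit can lie inside the outer limits of the gene, as at INPP5F, BRAF and TUBA1C. In 5 of the 8 upstream pairs (STK40, MBOAT2, BRAF, ATP6V0E2 and HSPA2) the summits flanked the start of a lncRNA gene, and 25 of the 33 pairs flanked at least 1 shared start. In the 20 flanking pairs the upstream summit had a median offset of -334.5 bp from the start and the downstream one of 441 bp. Over all 33, the closer summit lay at a median of 244 bp from the start and the farther one at 700 bp. A pair at least 369 bp apart cannot have both summits on the start, so this comparison follows in part from the choice of pairs.

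Neither side of the start had the stronger summit throughout. From the start chosen as above, the downstream summit scored higher in 19 of 33 pairs and the upstream one in 14, and the summit closer to the start scored higher in 19. Over all shared starts the downstream summit was higher throughout in 12 pairs and the upstream one in 10, and in 11 the side turned on which start was read. At TUBA1C, an alpha-tubulin gene, the summit 343 bp upstream scored 3.36 and the one 911 bp downstream scored 15.8. The latter was the highest score among all clustered summits and ranked 11th in the whole list. At CTCF, the gene of the insulator protein, the order was opposite: 12.1 at 288 bp upstream and 3.02 at 672 bp downstream. Both summits share the start of the lncRNA gene CTCF-DT as well. Read from it, the summit with 12.1 lay 71 bp downstream, so the side turned. SERTAD3, which encodes a transcriptional coactivator, scored 9.33 at 981 bp downstream and 2.55 at 208 bp upstream. At DEAF1, a transcription factor gene that shares its promoter with TMEM80, the scores were 8.32 at 475 bp downstream and 3.46 at 620 bp upstream. Read from the shared TMEM80 start, the side turned too, with 8.32 at 892 bp upstream and 3.46 at 203 bp downstream. Even scores were seen as well, such as 3.59 and 3.69 on either side of the start of NES, the gene of the intermediate filament protein nestin.

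**Figure D3:**
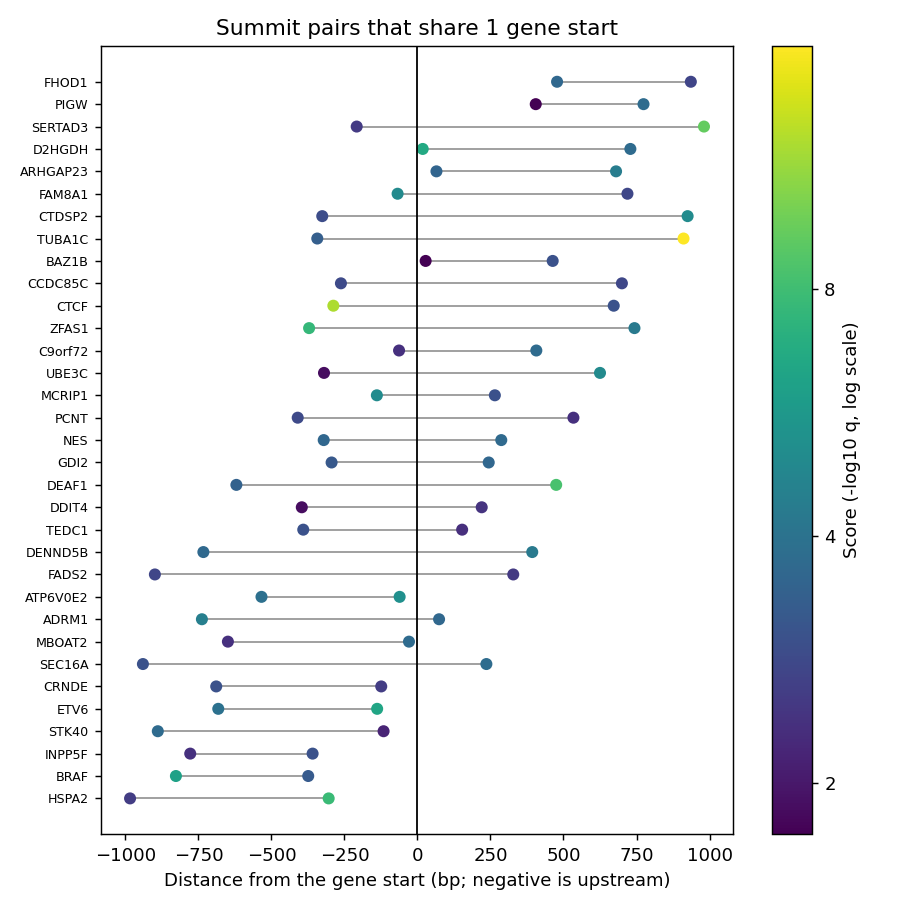
Distance of both summits from the shared gene start for each of the 33 pairs (horizontal axis, bp, negative upstream; 1 gene per line, joined by a grey line), coloured by score on a log scale. In 20 pairs the vertical line at the start separates the summits, and the brightest point is the TUBA1C summit 911 bp downstream.

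The tightest pair of the list lay 369 bp apart at the divergent promoter of PIGW, an enzyme of GPI anchor synthesis, and MYO19, a mitochondrial myosin. Its summits at chromosome 17 positions 36535392 and 36535761 lay 405 and 774 bp inside PIGW and scored 1.73 and 3.76. Read from the MYO19 start both were upstream, at offsets of -524 and -893 bp, although both lay within the outer limits of MYO19. MCRIP1, the gene of a MAPK-regulated corepressor partner, had summits 404 bp apart, scoring 4.98 at 139 bp upstream and 2.99 at 265 bp downstream. INPP5F, a phosphoinositide phosphatase gene, followed at 419 bp, with 2.36 and 3.02 at 778 and 359 bp upstream of the start used. An outer end of the gene lay between them, 332 bp from the first summit and 87 bp from the second. BAZ1B, the gene of WSTF itself, had summits at 73521830 and 73522265 on chromosome 7, 435 bp apart, both inside the gene, with scores of 3.02 and 1.73. At BRAF, a kinase gene of the MAPK cascade, both lay upstream of the start used, 6.16 at 827 bp and 3.25 at 374 bp. The former was 3 bp from the start of a lncRNA gene, and the latter lay inside the outer limits of BRAF. FHOD1, a formin gene, had 3.62 and 2.73 at 478 and 936 bp downstream. None of these 6 pairs had both summits at or above a score of 5.

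Summits of one-promoter clusters had a median score of 3.53 (order-statistic 95% interval 3.02 to 3.72), the lowest of the 5 classes, and those of several-promoter clusters had 4.05 (3.76 to 5.37). The intervals of the other 3 classes overlapped that of the one-promoter class. When only summits at or above the median score of the list were clustered, 4 of 37 clusters (10.8%) lay at one promoter and 13 (35.1%) spanned several. With a score of at least 5 none of 11 clusters lay at one promoter, which an exact interval limits to 28.5%, and 7 spanned several.

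Different starts of the same gene were used by 4 clusters. SNAP47, a SNARE family gene, had summits 7071 bp apart, which lay 325 and 58 bp before separate starts and scored 5.20 and 3.66. SNX25, a sorting nexin gene, had them 115 and 66 bp before its starts, 5410 bp apart, with 2.36 and 4.60. At HLCS, which attaches biotin to carboxylases, summits lay 105 and 123 bp inside its starts, 9296 bp apart, with 1.98 and 10.8. KAT6B, a histone acetyltransferase gene, carried 3 summits within 1371 bp: 68 bp inside one start, and 541 bp before and 94 bp inside the next. Their scores were 2.69, 3.72 and 3.36. Apart from that middle KAT6B summit, each lay within 325 bp of its own start.

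Several-promoter clusters numbered 29. Of these, 27 were pairs, and in those the gap between summits (median 7618 bp) differed from the distance between the starts by a median of 171 bp. The promoter window allows at most 2 kb here by definition, so this describes the class. Reading the nearest coding start at each summit, or the nearest lncRNA start where there was none, 14 pairs had genes on the same strand, 10 had divergent genes and 3 convergent ones. A coding gene was present at both summits in 23 of 27. The divergent pairs had a median gap of 5709 bp and the same-strand pairs 8621 bp, with wide overlap (1273 to 9313 bp and 2871 to 9952 bp).

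The strongest such pair joined THAP11, a zinc-finger transcription factor gene, to the start shared by CENPT, a kinetochore gene, and NUTF2, a nuclear import gene, 4867 bp away. Its scores of 9.23 and 10.4 were the highest lower score of all 122 pairs. CYBC1, which encodes a chaperone of the phagocyte oxidase, and NARF lay 7618 bp apart with 5.86 and 9.81. KAT5, the TIP60 acetyltransferase gene, scored 9.12 and its convergent neighbour RNASEH2C, an RNase H2 subunit gene, 4.57. The closest divergent pair, 1273 bp apart, joined NME3, a nucleoside diphosphate kinase gene, with 9.64 to EME2 and MRPS34 with 3.13. Pairs with near-equal scores included TUT1, an RNA uridylyltransferase gene, with MTA2, a NuRD subunit gene (5.31 and 5.01), and POLR2E, an RNA polymerase subunit gene, with GPX4, the lipid peroxide reductase gene (4.06 and 3.76). CKS2, a cyclin-dependent kinase partner gene, and SECISBP2 scored 5.91 and 5.43. DOHH and the anaphase-promoting complex activator FZR1 scored 6.84 and 5.40.

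TPI1, the triosephosphate isomerase of glycolysis, scored 3.96 and the facing gene SPSB2 6.26. CDKN1B, which encodes the cell cycle inhibitor p27, scored 3.78 and APOLD1 1.91. The inhibitor gene CDKN2D and its neighbour KRI1 lay 2871 bp apart with 2.31 and 1.95. MRPL12, a mitochondrial ribosomal protein gene, scored 3.76 and SLC25A10, a mitochondrial dicarboxylate carrier gene, 2.52.

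Several-promoter clusters of 3 summits were found at 2 places. CARS2, a mitochondrial cysteinyl-tRNA synthetase gene, scored 5.37, and ING1, a PHD finger gene of histone deacetylase complexes, scored 5.64 and 3.58 at starts of its own, with a gap of 2235 bp. NOL3, an apoptosis repressor gene, had summits 214 and 351 bp inside its starts with 3.83 and 4.04, and MATCAP1, a tubulin carboxypeptidase gene, had 4.04. The latter cluster spanned 13141 bp, the widest of the list. The share of this class depends on the joining distance: it was 6.90% at 5 kb and 1.45% at 2 kb.

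Promoter plus gene body was the class of 29 clusters, 23 of them pairs. In 16 of the 23 the gene-body summit lay in a gene whose start carried the other summit, and in 7 it lay in a different gene. Genes with several starts are included, so the gene-body summit was not always the deeper one. At HAS3 and SLC12A7 it lay 1589 and 1186 bp before the start that carried the promoter summit. In the 16 the gap had a median of 1931 bp (697 to 9020), and 8 were no more than 2000 bp. The promoter summit scored higher in 8 of the 16 and the gene-body one in 8. SLC16A3, which encodes the lactate exporter MCT4, had 9.87 at 89 bp before a start and 8.29 at 2234 bp farther along, the second highest lower score of all pairs. The summit with 8.29 lay 1045 bp before another SLC16A3 start, just past the promoter window. A further summit, 13 bp from the outer end of SLC16A3, scored 9.64 and was joined to the start of CCDC57 (3.41), since it lay 11032 bp from the next one. MNT, the gene of a partner of MAX that represses MYC targets, scored 6.75 at the promoter and 1.67 inside. SIN3A, a corepressor scaffold gene, scored 2.07 at 587 bp downstream of one start. Its other summit, with 4.26, lay 1358 bp downstream of another start, which precedes the first. KDM7A, a histone demethylase gene, scored 3.25 at the promoter and 4.30 in the gene body. CDC25B, the phosphatase gene that drives entry into mitosis, scored 2.24 and 3.58 in the same order.

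The most uneven pair of the whole list was in this class. In CARMIL2, the gene of a regulator of actin capping, a summit scored 11.8, and 7419 bp away the start shared by ACD, a shelterin gene, and PARD6A scored 1.49, a ratio of 7.95. The lower score was near the lowest of the list, 1.31, and the ratio depends on it. With a promoter window of 500 bp the class grew to 33.6% of clusters and the one-promoter class fell to 12.2%. With a window of 2 kb the shares were 13.0% and 42.0%.

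The largest cluster lay at ACTG1, the cytoplasmic gamma-actin gene. It belonged to the promoter plus gene body class. Its 5 summits spanned 2940 bp on chromosome 17. From inside the gene outward they lay 1021 and 206 bp downstream of the start and 602, 1115 and 1919 bp upstream of it. Their scores in that order were 1.95, 2.73, 3.25, 4.04 and 10.0. Each was higher than the one before, and the outermost summit, the strongest, lay 344 bp from an end of FSCN2, a fascin gene. The cluster of 4 began at ZNRD2, whose summit 20 bp before the start scored 10.6. It ran over an intergenic summit 73 bp from an end of FAM89B (2.16) to the start of EHBP1L1 (2.87) and into that gene (2.57).

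The other clusters of 3 in this class had low to middling scores. RILP, a Rab7 effector gene, had 3.96 at 560 bp and 4.09 at 1161 bp inside the gene, next to 5.51 in SCARF1, a scavenger receptor gene. The divergent centromere and centrosome genes CENPX and LRRC45 had 3.58 and 2.51 at their starts and 2.03 inside LRRC45. SOX12, a transcription factor gene, had 4.54 beside its divergent NRSN2-AS1 start, and 4.85 and 3.59 at 799 and 1918 bp inside. LAMA5, a laminin chain gene of the epithelial basement membrane, had 3.41 at 320 bp before the start, and 3.83 and 1.60 deep in the gene.

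Promoter plus intergenic sequence held 10 clusters. SP1, the gene of the factor that binds GC boxes, scored 7.28 at the promoter, and a summit 8828 bp upstream scored 6.99. UPP1, a uridine phosphorylase gene, had 7.37 at the start and 4.18 at 3630 bp upstream. SERTAD1 had 4.93 at the start and 6.74 at a site 401 bp beyond an end of the gene. ID1, the gene of an inhibitor of helix-loop-helix factors, had 3.19 and 3.44 at 12 and 685 bp inside its start and 4.04 beyond the gene. At PLA2G15, a lysosomal phospholipase gene, the promoter scored 5.21, and 2 summits 206 and 1570 bp outside ESRP2, an epithelial splicing regulator gene, scored 5.68 and 9.59. UBALD1 and MGRN1 had 2.52 and 1.67 at their starts, and the summit between them 5.28.

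Clusters away from the starts used here numbered 26, all pairs, with 17 touching a gene body and 9 fully intergenic. SP5, a Wnt-responsive transcription factor gene, held both summits inside, 1200 and 2063 bp from its start, with 3.44 and 3.76. HES1, a Notch target gene, was flanked by 5.25 at 1189 bp upstream and 4.67 beyond its other end. In KDM6B, a histone H3K27 demethylase gene, summits lay 1483 and 2127 bp downstream of different starts of the gene with 4.48 and 3.44. Near CCND1, the cyclin D1 gene, summits 390 bp apart lay 2639 and 2249 bp outside the gene with 5.04 and 3.18. The highest single score of the class, 8.998, was 154 bp outside DNAAF9, a gene whose start was not used here. The pair with the highest lower score had 8.59 and 5.28 and lay 7336 and 9333 bp beyond TH, the tyrosine hydroxylase gene. At BCOR, a Polycomb corepressor gene, both summits scored 3.72, a value that recurs in the list. It was the only tie among the 122 pairs. On chromosome 8, where no class was given, 3 summits lay about MYC: 6.59 at 1288 bp outside the gene, and 3.37 and 5.68 inside it.

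Clustered and other summits had the same median score to the digits given. Some score values recur in the list, the median value 3.724 among them, so equal medians do not show equal strength. It was 3.72 (3.59 to 3.96) for the 286 clustered summits and 3.72 (3.68 to 3.76) for the 2411 others. A score of at least 10 was reached by 7 clustered summits (2.45%, 0.990 to 4.98) and by 35 others (1.45%, 1.01 to 2.01). Within pairs the higher score was a median of 1.58 times the lower (quartiles 1.24 and 1.92). The ratio was at least 2 in 25 of 122 pairs and at least 4 in 5. Across the 122 pairs the scores of the left and right summit had a Spearman rho of 0.022, given as a description of summits from 1 library.

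**Figure D4:**
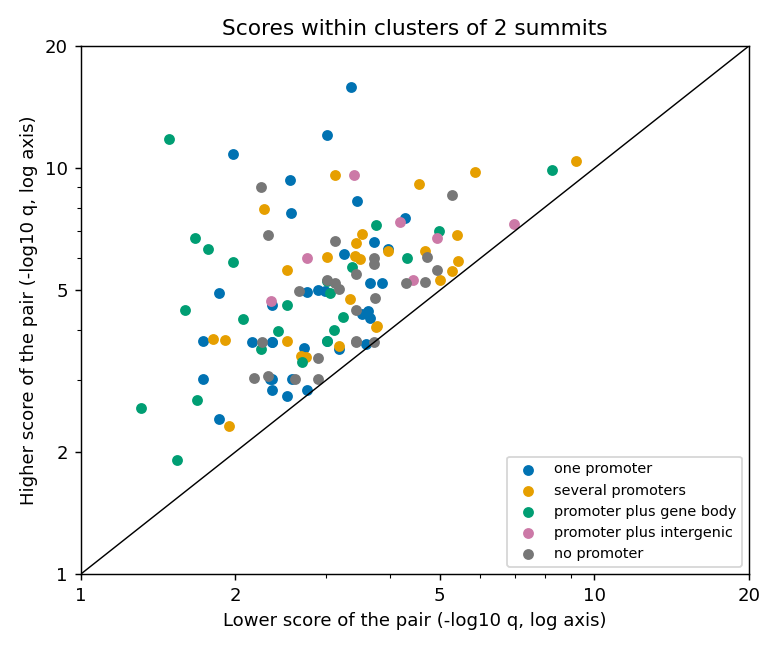
Higher against lower score (−log10 q, both axes logarithmic) of the classed clusters of 2 summits, 1 point per pair, coloured by class; the line marks equal scores. THAP11 with CENPT and NUTF2 is the point farthest up the line, and TUBA1C (3.36 and 15.8) is the highest point.

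Clusters were unevenly spread over the chromosomes. Of the summits on chromosome 17, 45 of 227 (19.8%, 14.8 to 25.6) were clustered, followed in number by 33 of 194 (17.0%) on chromosome 16 and 30 of 264 (11.4%) on chromosome 11. Chromosome 20 had 27 of 145 (18.6%) and chromosome 12 had 24 of 154 (15.6%). On chromosome 1, the share was 10 of 205 (4.88%, 2.36 to 8.79), on 5 it was 2 of 106 and on 6 it was 2 of 98. Chromosome 18 had none of 11, which allows up to 28.5%. In windows of 2 Mb, the most clusters were 7 between 66 and 68 Mb of chromosome 16, where 15 of 35 summits were clustered and 59 genes with a start lay. The 7 include THAP11, CTCF, NOL3, CARMIL2, FHOD1, TK2 and RIPOR1. Next were 5 clusters between 82 and 84 Mb of chromosome 17, with SLC16A3, CYBC1 and OGFOD3, and 5 in the first 2 Mb of chromosome 19. In all, 8 windows with at least 3 clusters held 33 of the 135. The part of gene density in these counts was not tested. A median of 2 genes had a start within 10 kb of a clustered summit, and 1 gene for the other summits.

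**Figure D5:**
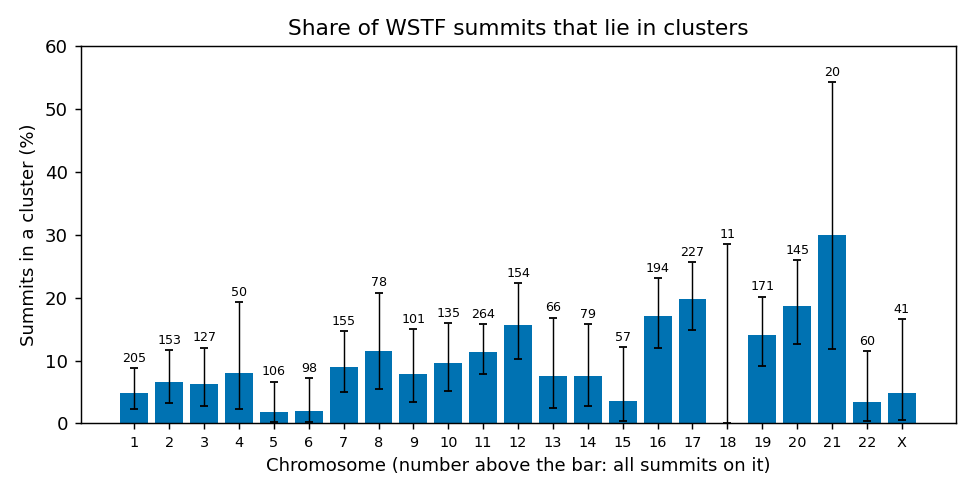
Share of the summits on each chromosome that lie in a cluster (vertical axis, %, bars; lines are exact 95% intervals), with the number of all summits above each bar. Chromosomes 16, 17 and 20 stand at 17.0 to 19.8%, chromosomes 5 and 6 near 2%, and the interval of chromosome 21 (6 of 20) is wide.

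Promoter sequences at clustered summits resembled those at other summits in base composition. The 159 promoters nearest to the clustered promoter summits had a median GC content of 69.7% and 32 CpG per 300 bases. The values were 70.0% and 32 for the 1775 at other summits, and 58.7% and 14 for all 34961 RefSeq promoters. GGGCGG was present in 79.9% (72.8 to 85.8) at clustered summits, 82.7% (80.9 to 84.4) at others and 45.0% of all. The ETS letters CCGGAAG were in 13.2% (8.37 to 19.5), 22.0% (20.1 to 24.0) and 10.3%. Here the interval at clustered summits lay below that at other summits. This difference was picked out from all the motifs listed, without a test or a correction for their number. CCAAT was in 37.7% (30.2 to 45.8), 34.3% and 34.6%. TATAAA was rare at both, in 1.89% and 3.38%, against 11.5% of all promoters. For the other motifs the shares at clustered summits, at other summits and among all promoters were 5.03%, 8.62% and 3.06% (NRF1), 10.1%, 11.0% and 6.58% (YY1), and 1.89%, 3.94% and 1.85% (ATF/CREB). They were 10.7%, 12.6% and 7.27% for the E-box and 3.77%, 3.38% and 7.68% for AP-1. In the 33 promoters with both summits at 1 start, ETS letters were present in 3 and CCAAT in 16.

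Genes of 10 lists relevant to WSTF and to colorectal cancer cells were looked up among the clusters. A clustered summit lay at a start of 146 of 15812 protein-coding genes, or 0.923%. Of 208 list genes with a start, 7 had one (3.37%, 1.36 to 6.81): BAZ1B, BRAF, CDKN1B, CTCF, KAT5, SLC16A3 and TPI1. The lists were drawn up with earlier results of these data known, so this share is not evidence about the pathways. The WSTF and ISWI list had 1 of 14 (BAZ1B), glycolysis and lactate 2 of 19 (SLC16A3 and TPI1), and chromatin architecture and histone enzymes 2 of 29 (CTCF and KAT5). No clustered summit lay at a start of the 23 genes of BAF and other remodellers, 18 of the DNA damage response, 18 of Wnt and colon, 17 of mitochondrial and redox genes or 24 of splicing and RNA helicases. Beside 0.923% of all coding genes, none in lists of this length does not show a lack. Any summit was present at a start of 12.9% of all protein-coding genes and of 63 of the 208 list genes. In the lists with no clustered summit, genes with any summit were 7 of 23 (BAF and other remodellers), 8 of 18 (DNA damage response), 1 of 18 (Wnt and colon), 6 of 17 (mitochondrial and redox) and 7 of 24 (splicing and RNA helicases). In the others they were 5 of 14 (WSTF and ISWI), 5 of 19 (glycolysis and lactate) and 12 of 29 (chromatin architecture and histone enzymes). Cell cycle and replication had 6 of 25, and RAS, MAPK and PI3K 6 of 21. Of 11383 lncRNA genes with a start, 35 (0.307%) had a clustered summit there, among them ZFAS1, with 7.55 and 4.28 on either side of its start, and CRNDE, with 3.02 and 2.57 upstream. Hairpins of 2 miRNAs lay within 1 kb of a clustered summit: MIR210, 282 bp from the summit at its hypoxia-regulated host gene MIR210HG (6.26), and MIR1908, 64 bp from one at FADS2. MIR3153 lay within the span of the CKS2 and SECISBP2 cluster, 1626 bp from the nearest summit, and MIR3193 within that of ID1, 1212 bp away.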

How the data were processed

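Chromatin from SW620 cells was immunoprecipitated and sequenced by the authors. The build hg38 and the tools MACS2 2.2.7.1, Bowtie2 2.4.4 and Trimmomatic 0.39 are named per the submitters' processing notes, and input DNA as the control in the design text. The sources used here do not say if samples were pooled. The deposited list gives 1 base and 1 score per peak, read as −log10 of the q-value because its lowest value, 1.31, lies just above 1.30. All 2697 peak names are distinct and none marks a peak that was split. Depth is unknown.

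Summits were joined where the next lay within 10 kb. Start sites (34961, for 82.1% of protein-coding genes off chromosome 8) came from the RefSeq promoter table and gene limits from the RefSeq gene table, both GRCh38.p14, which shares the chromosome coordinates of hg38. Where a gene had several starts listed, all were used. The outer end at which a gene begins was not always among them, as at INPP5F and SLC16A3. Class counts were not corrected for this. Shares carry exact Clopper-Pearson 95% intervals, medians order-statistic intervals. No test was run, since the list has no replicates. The members, gene lists and classes were chosen with earlier results of these data known. Clusters named are those with at least 3 summits, the 10 tightest pairs, the 10 with the highest lower score, the 5 with the highest top score, the 4 strongest of each class, those at the 10 kb limit and those at BAZ1B or list genes, and not all of these are described. Other genes were picked after their values were seen. Python 3.11.15 was used with pandas 2.3.3 and scipy 1.17.1. Clustering and classing were tested on simulated single summits and pairs with a single start per gene. Longer chains and genes with several starts were not simulated.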

Additional observations from a re-analysis of the deposited data

How the results depend on the processing

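Keeping 1 summit per peak name and leaving out the 3 summits of highest score removed no clustered summit, so these settings test nothing here. Of 59 values under the other settings, 26 stayed within the interval of the main value or, for a count, within 1.5 times of it, and 33 moved. With a joining distance of 5 kb there were 189 clustered summits, 42.5% of clusters lay at one promoter and 6.90% over several. With 20 kb there were 484 summits in 217 clusters and 17.5% at one promoter. With 2 kb there were 150 summits in 72 clusters, 52.2% at one promoter, 1.45% over several, and a median score of 3.45. Summits at or above the median score gave 83 in 40 clusters, 10.8% at one promoter, 35.1% over several, 13.5% promoter plus gene body, 58.4% promoter summits and a median score of 5.25. A score of at least 5 gave 27 in 13 clusters, with 0%, 63.6%, 9.09%, 73.9% and 5.86 in the same order. A promoter window of 500 bp gave 12.2% at one promoter, 33.6% promoter plus gene body and 55.2% promoter summits, and one of 2 kb gave 42.0%, 13.0% and 75.5%. Promoter summits made up 71.1% with either end of a gene as a promoter. They made up 72.6% when ends of genes with no start were added, a setting chosen after seeing the data, as was the use of outermost starts alone, under which no share moved. Fewer summits enter under the stricter scores, and the distance and window enter the class definitions. No paired analysis was possible because the summits came from 1 list without replicates. Depth is unknown, so a gene with 1 or no summit is not shown to lack a further site.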
